A study of Mus musculus with 53 samples.

Results

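S100 proteins and annexins are small families of calcium-binding proteins that often work as partners. The set examined here held 10 genes, picked by name rather than by a threshold on measured values, though with earlier results of these data known: S100a1, S100a4, S100a6, S100a8, S100a9, S100a10, Anxa1, Anxa2, Anxa3 and Anxa5. Each matched 1 row, so 10 of the 34306 genes in the deposited table are described, and all 10 passed the filter on low values.

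S100 proteins carry EF-hand calcium sites, mostly form dimers, and change shape on binding calcium so that they can dock on target proteins. Annexins bind acidic membrane lipids in a calcium-dependent way and take part in membrane repair, vesicle traffic and the resolution of inflammation. In the heart, S100A1 is the family member of the cardiomyocyte, where it acts on the ryanodine receptor and the sarcoplasmic reticulum calcium pump. S100A8 and S100A9 together form calprotectin, a major protein of neutrophils and monocytes, and S100A10 forms a tetramer with annexin A2 at the cell surface.

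RNA came from hearts of adult male mice and was read as total cytoplasmic RNA, called input, and as RNA pulled down with tagged ribosomes by translating ribosome affinity purification (TRAP), which enriches for transcripts being translated. In CAG mice the tag is made in all lineages. In Tie2 mice an endothelial Cre switches it on, and Tie2-Cre is also known to recombine in blood lineages. The 4 operated CAG groups had 2 libraries each: sham input, sham TRAP, band input and band TRAP. Banding constricts the ascending aorta and loads the ventricle, and the sham operation left out the ligature; no source used here states the time after surgery. Hearts without surgery gave 4 further libraries, 1 for each RNA in each of the CAG and Tie2 lines. All groups carry the ribosome tag; the labels of earlier samples in the series give a mixed 129/C57BL background, and the labels of the 12 libraries used here give none. RNA was pooled before library making, so the spread between libraries may be smaller than that between animals, and nothing in the labels ties a library to single hearts.

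Libraries held between 26568988 and 94878619 reads. Of 10 cardiomyocyte markers, all 10 were over 1 lower on the log2 scale in Tie2 TRAP than in Tie2 input, and all 12 endothelial markers were over 1 higher. The unoperated hearts stood apart: Nppa, an atrial peptide gene, read 2808 RPKM in unoperated CAG input and 140 and 138 RPKM in sham input. RPKM is reads scaled to transcript length and library size, so levels of different genes can be set side by side. In bulk RNA, more cells of a type and more RNA per cell cannot be told apart.

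Of the 10 genes, 7 lie on chromosome 3, and S100a1, S100a4, S100a6, S100a8, S100a9 and S100a10 sit there among other S100 genes. S100a8 and S100a9 are neighbours, S100a1 neighbours S100a13 and S100a10 neighbours S100a11. Annexin genes are scattered, with Anxa5 on chromosome 3, Anxa3 on 5, Anxa2 on 9 and Anxa1 on 19. Promoter sequences from RefSeq were matched for 8 of the 10 genes, all but S100a10 and Anxa3. Those of S100a4, S100a6, S100a9 and Anxa2 are shown because these 4 genes were called higher after banding, and that of S100a8 because its protein is the partner of S100A9. Each line gives the 250 bases before the transcription start on the gene's strand, build GRCm38.p6, with S100a9 on the minus strand and the others on the plus strand. Capitals mark matches on either strand to the TATA-box letters TATAAA, the AP-1 letters TGANTCA, a loose C/EBP pattern TTGNNNAA, the STAT letters TTCNNNGAA, or the NF-kB motif.
S100a4 (chr3:90603520-90603769): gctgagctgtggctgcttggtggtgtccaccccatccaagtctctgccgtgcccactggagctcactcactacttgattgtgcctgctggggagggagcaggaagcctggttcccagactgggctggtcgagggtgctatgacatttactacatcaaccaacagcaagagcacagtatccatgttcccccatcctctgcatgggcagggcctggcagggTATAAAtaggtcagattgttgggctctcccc
S100a6 (chr3:90612644-90612893): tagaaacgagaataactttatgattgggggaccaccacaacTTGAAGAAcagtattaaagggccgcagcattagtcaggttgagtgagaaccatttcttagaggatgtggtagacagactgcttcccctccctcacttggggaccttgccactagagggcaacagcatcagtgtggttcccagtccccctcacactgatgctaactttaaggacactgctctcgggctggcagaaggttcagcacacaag
S100a8 (chr3:90668821-90669070): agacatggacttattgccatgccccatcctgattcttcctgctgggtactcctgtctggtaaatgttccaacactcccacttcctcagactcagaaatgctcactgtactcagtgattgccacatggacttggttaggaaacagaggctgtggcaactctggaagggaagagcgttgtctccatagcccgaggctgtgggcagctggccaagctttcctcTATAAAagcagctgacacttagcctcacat
S100a9 (chr3:90695722-90695971): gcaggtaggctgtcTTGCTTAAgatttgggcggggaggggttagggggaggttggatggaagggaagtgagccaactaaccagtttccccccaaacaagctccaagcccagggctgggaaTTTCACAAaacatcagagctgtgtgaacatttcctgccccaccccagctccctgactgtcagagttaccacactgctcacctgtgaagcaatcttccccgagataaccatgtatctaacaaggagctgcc
Anxa2 (chr9:69453433-69453682): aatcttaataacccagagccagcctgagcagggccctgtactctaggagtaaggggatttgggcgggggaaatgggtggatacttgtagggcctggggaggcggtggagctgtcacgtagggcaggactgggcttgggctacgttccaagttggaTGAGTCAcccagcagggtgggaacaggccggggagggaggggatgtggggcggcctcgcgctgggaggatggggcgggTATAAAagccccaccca

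TATAAA stood 31 bases before the start of S100a4 and 30 bases before that of S100a8, the usual place of a TATA box, and 12.4% of all 32851 promoter windows of this length held it. S100a9 and S100a6 had no TATAAA in the window. The S100a9 window held 2 matches to TTGNNNAA, at 236 and 130 bases before the start, a pattern found in 33.3% of windows. S100a6 held 1 such match. Anxa2 held TGANTCA 95 bases before the start, which 6.75% of windows do, as well as TATAAA. These 5 windows held no match to the NF-kB motif or the STAT letters, which 3.9% and 7.02% of windows hold. Shared letters are a description of the sequence, and no pattern was common to the 4 genes that rose.

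**Figure D1:**
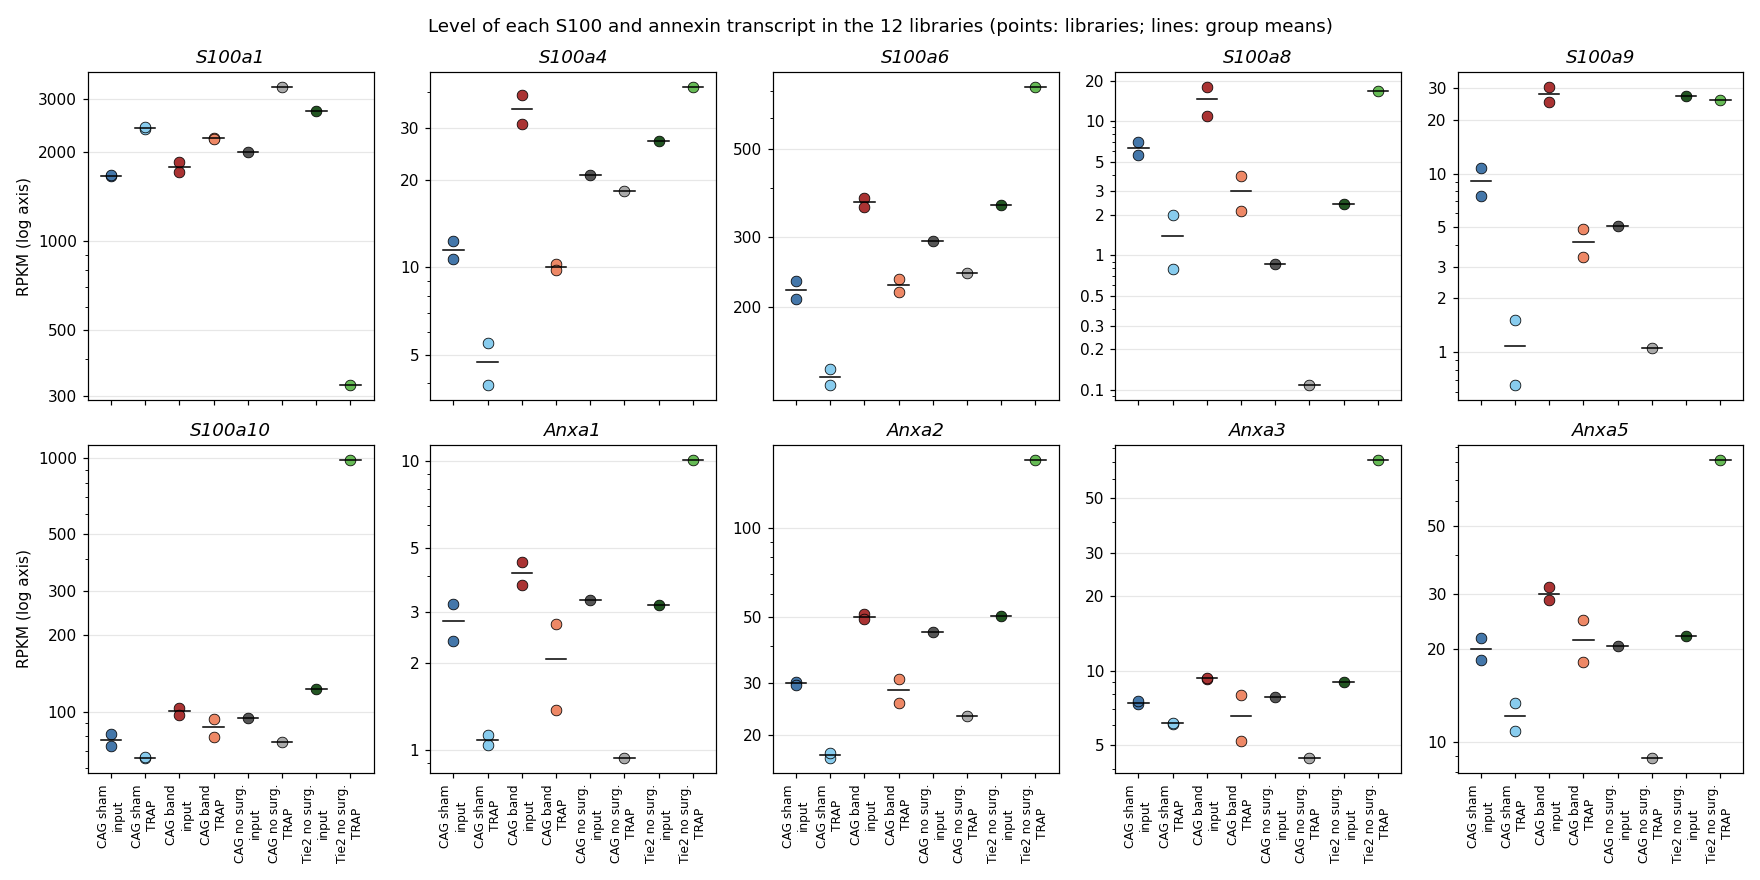
RPKM of each of the 10 genes on log axes, 1 panel per gene, with 1 point per library and a line at the group mean. S100a1 is lowest in Tie2 TRAP (327 RPKM), while S100a10, Anxa1, Anxa2, Anxa3, Anxa5, S100a4 and S100a6 are highest there.

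The genes spanned a wide range of levels. S100a1 alone made up 72.2% to 91.0% of the summed RPKM of the 10 genes in 11 of the 12 libraries, and 13.3% in Tie2 TRAP. It ranked between 64 and 93 among all genes in those 11 libraries and 355 in Tie2 TRAP. In those 11 libraries S100a6 came next and then S100a10, while in Tie2 TRAP S100a10 (985 RPKM) and S100a6 (718 RPKM) were both above S100a1 (327 RPKM). Anxa1 was the lowest annexin, at 0.938 to 10.1 RPKM, and S100a8 had the lowest single reading of the set, 0.108 RPKM from 4 reads in unoperated CAG TRAP.

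Between banded and sham hearts, S100a4, S100a6, S100a9 and Anxa2 were higher in input RNA and again in TRAP RNA, by 1.66 to 3.81 times. No member was called lower in either. In input RNA 4 of 10 were called, all higher, beside 4.08% of all 11654 genes tested in either direction (2.44% higher and 1.65% lower). In TRAP RNA the same 4 were called higher, beside 3.77% of all genes (2.21% higher and 1.56% lower). The limma test with Benjamini-Hochberg adjustment over all genes, called at an adjusted p under 0.05, gave these counts. Both comparisons rest on 2 libraries a side. In input RNA, leaving out any 1 of the 4 libraries ended every call but that of S100a4 without band input library 1, and in TRAP RNA leaving out either sham TRAP library, or fitting the 4 libraries compared alone, ended all 4. With no filter on low values the TRAP call of S100a6 was the only one to pass, and with voom on recovered reads those of S100a6 and Anxa2. The differences themselves stayed positive for these 4 genes under every alternative run.

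S100a4, also called metastasin or FSP1, is a motility-linked protein of fibroblasts and leukocytes that binds non-muscle myosin. In input RNA it read 10.7 and 12.3 RPKM in sham and 31.1 and 39.0 RPKM in band libraries. In TRAP RNA it read 5.5 and 3.94 RPKM in sham and 10.3 and 9.83 RPKM in band libraries. Both band libraries lay above both sham libraries in either RNA, with no overlap. The mean rose 3.05-fold in input, a difference of 1.52 on the log2(RPKM + 1) scale (SE 0.16, limma, Benjamini-Hochberg adjusted p = 0.00643). It rose 2.13-fold in TRAP RNA, by 0.96 (SE 0.16, limma adjusted p = 0.0268).

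S100a6, or calcyclin, is found in fibroblasts, smooth muscle and other dividing or stressed cells. It read 209 and 232 RPKM in sham input against 377 and 357 RPKM in band input. The TRAP libraries read 140 and 127 RPKM after sham surgery and 236 and 218 RPKM after banding. All 4 band libraries lay above the sham libraries of the same RNA. The rise was 1.66-fold in input (log2 difference 0.73, SE 0.10, limma adjusted p = 0.0126) and 1.70-fold in TRAP RNA (0.76, SE 0.10, limma adjusted p = 0.00976).

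Calprotectin genes were low, so their reads are few. S100a9 read 10.7 and 7.52 RPKM in sham input, from 272 and 129 reads, and 30.6 and 25.3 RPKM in band input, from 455 and 474 reads. In TRAP RNA it read 0.653 and 1.52 RPKM after sham surgery and 4.88 and 3.40 RPKM after banding. Band libraries were higher in both RNAs and did not overlap the sham libraries. S100a9 rose 3.06-fold in input (log2 difference 1.53, SE 0.25, limma adjusted p = 0.0234) and 3.81-fold in TRAP RNA (1.32, SE 0.25, limma adjusted p = 0.0414). Its TRAP values are near the 1 RPKM added before the log, which shrinks the log2 difference there. The input call was lost with a pseudocount of 0.1 RPKM (limma adjusted p = 0.0724) and with no filter on low values (limma adjusted p = 0.0926).

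S100a8, the partner subunit, read 7.0 and 5.64 RPKM in sham input and 18.1 and 11 RPKM in band input. In TRAP RNA it read 0.792 and 2.01 RPKM in sham and 3.90 and 2.14 RPKM in band libraries. The means stood 2.30-fold and 2.15-fold apart and the libraries did not overlap, yet the test was not passed. In input the log2 difference was 1.06 (SE 0.34, limma adjusted p = 0.146) and in TRAP RNA 0.76 (SE 0.34, limma adjusted p = 0.275). The 95% intervals, 0.26 to 1.85 and -0.04 to 1.55, were wide enough to hold the S100a9 differences.

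Anxa2, which bridges membranes and binds plasminogen activator with S100A10, read 30.1 and 29.6 RPKM in sham input against 51.1 and 49.3 RPKM in band input. In TRAP RNA it read 16.7 and 17.4 RPKM after sham surgery and 31.1 and 25.7 RPKM after banding. Replicates lay close together in sham, and band and sham libraries of the same RNA did not overlap. It rose 1.68-fold in input (log2 difference 0.73, SE 0.10, limma adjusted p = 0.0156) and 1.66-fold in TRAP RNA (0.69, SE 0.10, limma adjusted p = 0.0173).

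S100a10, its light chain, read 73.4 and 81.8 RPKM in sham input and 104 and 96.9 RPKM in band input. In TRAP RNA it read 65.5 and 66.3 RPKM in sham and 93.7 and 79.7 RPKM in band libraries. The groups did not overlap, but neither difference was called: 0.37 in input (SE 0.10, limma adjusted p = 0.116) and 0.38 in TRAP RNA (SE 0.10, limma adjusted p = 0.0990). Per length, S100a10 exceeded Anxa2 in all 12 libraries. Its ratio to Anxa2 was 2.43 and 2.76 in sham input and 2.03 and 1.97 in band input, and it was 3.93 and 3.81 in sham TRAP and 3.02 and 3.11 in band TRAP. The ratio was thus lower after banding in both RNAs, with no overlap, which was not tested.

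Anxa5, used as a probe of exposed phosphatidylserine, missed the threshold narrowly in TRAP RNA. It read 10.9 and 13.3 RPKM in sham TRAP and 24.7 and 18.1 RPKM in band TRAP, a log2 difference of 0.76 (SE 0.17, limma adjusted p = 0.0579). It was called under 5 other settings, among them quantile normalization (limma adjusted p = 0.0428) and leaving out band TRAP library 2 (limma adjusted p = 0.00623). In input it read 21.6 and 18.4 RPKM in sham and 31.5 and 28.7 RPKM in band libraries, a difference of 0.57 (SE 0.17, limma adjusted p = 0.124).

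Anxa1, a resolving signal of inflammation that acts on formyl peptide receptors, read 3.22 and 2.39 RPKM in sham input and 4.49 and 3.72 RPKM in band input (log2 difference 0.43, SE 0.22, limma adjusted p = 0.344). Its TRAP values were 1.05 and 1.13 RPKM after sham surgery and 2.74 and 1.38 RPKM after banding (0.52, SE 0.22, limma adjusted p = 0.251). Anxa3 is an annexin of neutrophils and endothelium. It differed by 0.29 in input (SE 0.16, limma adjusted p = 0.383) and by 0.06 in TRAP RNA (SE 0.16, limma adjusted p = 0.886), where it was the 1 member whose band libraries, 7.92 and 5.17 RPKM, overlapped the sham libraries, 6.07 and 6.14 RPKM.

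S100a1 stood apart from the other 9 genes. It read 1656 and 1665 RPKM in sham input and 1707 and 1846 RPKM in band input, a difference of 0.10 with a 95% interval of -0.09 to 0.28 (limma adjusted p = 0.578). In TRAP RNA it read 2390 and 2422 RPKM after sham surgery and 2229 and 2208 RPKM after banding, a difference of -0.12 with an interval of -0.30 to 0.07 (limma adjusted p = 0.473). It was the only member below sham in both banded TRAP libraries.

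Counting direction alone, both band libraries lay above both sham libraries for 10 of 10 genes in input, where 28.7% of all genes did so, and for 8 of 10 in TRAP RNA, where 21.9% did. In TRAP RNA 1 member, S100a1, had both band libraries below both sham libraries, as 22.4% of all genes had. The median log2 difference of the 10 genes was 0.65 in input and 0.73 in TRAP RNA, beside -0.01 for all genes in both. Summed over the 9 genes other than S100a1, the level was 374 and 397 RPKM in sham input and 657 and 620 RPKM in band input, most of it from S100a6 and S100a10.

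**Figure D2:**
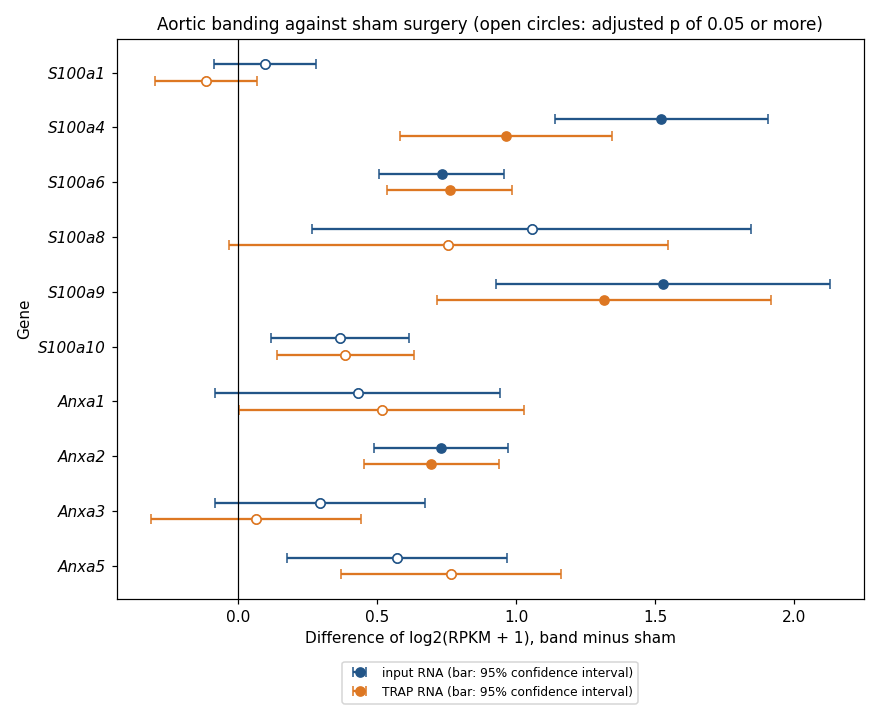
Difference of log2(RPKM + 1) between band and sham CAG hearts for each of the 10 genes, in input and in TRAP RNA, with 95% confidence intervals from limma. Filled circles passed the adjusted threshold: S100a4, S100a6, S100a9 and Anxa2 did so in both RNAs.

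Markers of other cells went in different directions between band and sham hearts. The neutrophil list held 16 genes, of which Ly6g and Stfa1 were listed at 0 in every library. Lcn2, which other heart cells also make, read 80.2 to 150 RPKM in all 8 operated libraries and 3.0 to 20.2 RPKM in the 4 unoperated ones. Without Lcn2 the other 15 summed to 2.91 and 3.17 RPKM in sham input and 7.66 and 7.35 RPKM in band input. Of the 16 neutrophil genes, 4 passed the low-value filter, of which 1 was called higher in band input and 1 in band TRAP. The input call was that of Csf3r, a neutrophil growth factor receptor (log2 difference 0.62, limma adjusted p = 0.0426). The TRAP call was that of Lcn2, at 95.9 and 92.8 RPKM in sham and 150 and 127 RPKM in band TRAP. Of 12 macrophage markers, 4 were called higher in band input, namely Cd14, Cd68, Fcgr1 and Itgam, and 1, Fcgr1, in band TRAP. Their summed level was 467 and 477 RPKM in sham input and 613 and 516 RPKM in band input. The fibroblast list of 11 genes had 1 higher and 1 lower call in input and 1 lower in TRAP RNA. Of 9 smooth muscle and pericyte markers 1, Tagln, was called higher in band input (log2 difference 1.27, limma adjusted p = 0.0222) and none in band TRAP. Of 5 erythroid genes tested, 1 was lower in band input and 3 in band TRAP, and of 4 mesothelial genes tested 1 was lower in each. Of 12 endothelial markers none was called in either. The part of these cells in the rise of S100a4, S100a6, S100a9 and Anxa2 was not tested.

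Comparing TRAP with input RNA within CAG hearts asks which transcripts are over- or under-represented on tagged ribosomes. S100a1 was the only member higher in TRAP RNA, and 7 of the other 9 were lower, both after sham surgery and after banding. In sham hearts limma called 8 of 10, 1 higher and 7 lower, beside 39.6% of all genes tested (15.1% higher and 24.5% lower). In banded hearts the counts were again 1 and 7, beside 42.6% of all genes (16.6% higher and 26% lower). The median of all genes lay at -0.09 and -0.10, and that of the 10 genes at -0.75 and -0.73. Scaling moves this split: 1763 genes were higher and 2852 lower in sham hearts as deposited, 2053 and 1851 after quantile normalization, and 988 and 4519 when the most abundant, mitochondrial and haemoglobin genes were left out of the scaling. The last 2 scalings put the median of all genes at 0.05 and -0.25, and the 7 lower calls in sham hearts stayed lower under both.

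S100a9 and S100a8 showed the widest gaps. S100a9 was 0.12 times its input level in sham TRAP (log2 difference -2.29, SE 0.25, limma adjusted p = 0.00120) and 0.15 times in band TRAP (-2.50, SE 0.25, limma adjusted p = 0.000665). The 1 RPKM added before the log weighs on its low TRAP values, so ratio and log2 difference order the surgeries differently. S100a8 was at 0.22 and 0.21 times its input level (-1.65, SE 0.34, limma adjusted p = 0.00900, and -1.95, SE 0.34, limma adjusted p = 0.00429). The counts behind them were 11 and 33 reads of S100a8 in sham TRAP against 134 and 73 in sham input. Leaving out sham input library 1 or sham TRAP library 1 ended the sham call of S100a8, at limma adjusted p of 0.0646 and 0.0560. The neutrophil sum without Lcn2 was 0.606 and 0.569 RPKM in sham TRAP and 1.28 and 1.61 RPKM in band TRAP, also below the input libraries. Of the macrophage markers, 11 of 12 were lower in sham TRAP and 12 of 12 in band TRAP, and 9 of 11 fibroblast markers were lower in each; the part of those cells in the gap was not tested.

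S100a4 was 0.41 times its input level in sham TRAP (log2 difference -1.14, SE 0.16, limma adjusted p = 0.00262) and 0.29 times after banding (-1.70, SE 0.16, limma adjusted p = 0.000560). S100a6 stood at 0.60 and 0.62 times input (-0.72 and -0.69, both with SE 0.10; limma adjusted p = 0.00207 and 0.00190). Anxa2 stood at 0.57 and 0.56 times input (-0.77 and -0.81, both with SE 0.10; limma adjusted p = 0.00211 and 0.00142). Every TRAP library of these 3 genes lay below every input library of the same surgery, which 46.9% of all genes did in sham and 41.6% in banded hearts.

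The calls of Anxa1, Anxa3 and Anxa5 were less firm. Anxa1 was lower by -0.86 in sham (SE 0.22, limma adjusted p = 0.0199) and by -0.77 in banded hearts (SE 0.22, limma adjusted p = 0.0270), with no overlap in either. The sham call ended without sham input library 1 or either sham TRAP library, and the band call without either band input library or band TRAP library 2. Anxa5 was called lower in sham hearts only (-0.68, SE 0.17, limma adjusted p = 0.0175), at -0.49 after banding (SE 0.17, limma adjusted p = 0.0516). After banding Anxa5 passed under 6 of the alternatives, among them quantile normalization (limma adjusted p = 0.0235) and leaving out band TRAP library 1 (limma adjusted p = 0.00506). The sham call of Anxa5 ended without sham input library 1, sham input library 2 or sham TRAP library 1. Anxa3 was called after banding only (-0.48, SE 0.16, limma adjusted p = 0.0495), at -0.24 in sham hearts (SE 0.16, limma adjusted p = 0.261). That call was lost under 8 of the alternatives, leaving out band TRAP library 2 among them (limma adjusted p = 0.0686). The change between surgeries itself was not called for either gene.

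Among the S100 members, S100a10 was nearest to parity, at 0.85 times input in sham and 0.86 times in band TRAP. Its differences of -0.23 and -0.21 (both with SE 0.10) were not called (limma adjusted p = 0.121 and 0.144). Quantile normalization gave -0.40 and -0.35 with a call in both (limma adjusted p = 0.0137 and 0.0195), so whether it is lower depends on the scaling. For S100a10 and Anxa2, whose proteins form 1 complex, the 95% intervals in sham hearts were -0.48 to 0.02 and -1.02 to -0.53, and the difference between the 2 genes was not tested.

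S100a1 was 1.45 times its input level in sham TRAP (log2 difference 0.53, SE 0.08, limma adjusted p = 0.00277) and 1.25 times in band TRAP (0.32, SE 0.08, limma adjusted p = 0.0153). Both TRAP libraries lay above both input libraries in each, as they did for 32.2% of all genes in sham and 27.5% in banded hearts. Short transcripts tended to be higher in TRAP RNA: genes in the length class of S100a1, whose transcript has 677 bases, had medians of 0.29 in sham and 0.24 in banded hearts. With the length trend removed the sham difference was 0.27 (limma adjusted p = 0.0443) and the band difference 0.10 (limma adjusted p = 0.385). The band call was also lost under quantile normalization (0.09, limma adjusted p = 0.410), under rescaling (0.11, limma adjusted p = 0.279) and without band input library 1 (limma adjusted p = 0.0972).

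Banding was not seen to shift any member between ribosomes and input. The limma interaction test called 0 of 10 members and 0 of 11654 genes, the latter 0% of those tested. At an unadjusted p under 0.05 there were 557 genes and 1 member, S100a4, with a change of -0.56 (SE 0.23, unadjusted p = 0.0448, limma adjusted p = 0.992). Voom on the recovered reads also called 0 members. The 95% interval for S100a6 was -0.29 to 0.35 and that for Anxa2 -0.38 to 0.31. For S100a8 it ran from -1.42 to 0.82, so a sizeable change in either direction could not be seen with this spread between libraries.

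**Figure D3:**
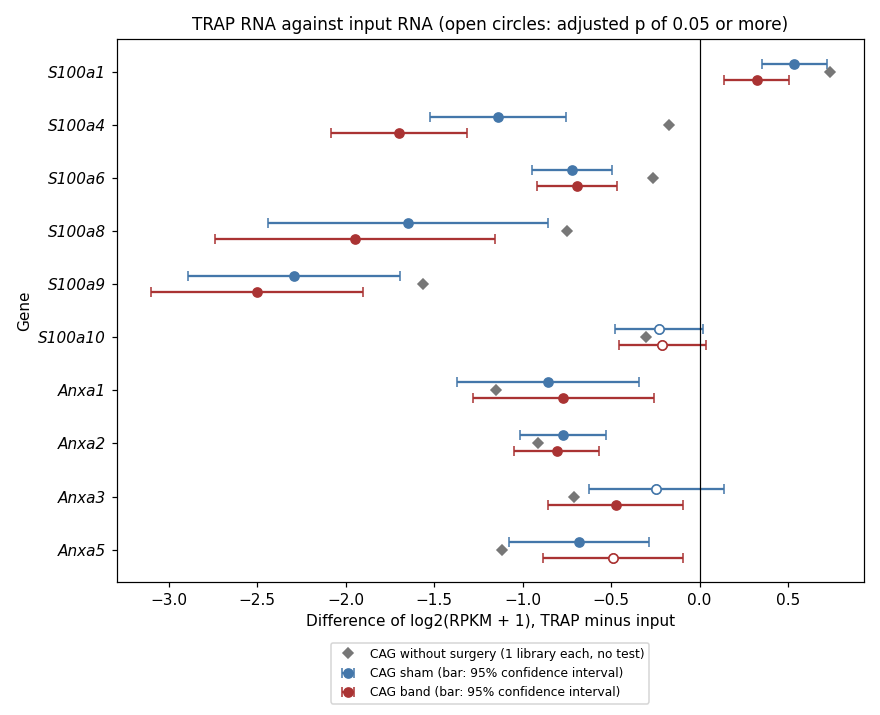
Difference of log2(RPKM + 1) between TRAP and input RNA for each of the 10 genes in sham and band CAG hearts, with 95% confidence intervals from limma, and in the unoperated CAG heart as a diamond without error. S100a1 is the only gene right of 0, and S100a9 lies farthest left at -2.29 and -2.50.

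In the unoperated CAG heart, with 1 library of each RNA and no test, S100a1 was again higher in TRAP (3307 against 1988 RPKM) and the other 9 lower. No member was over 1 higher on the log2 scale, as 0.961% of all genes were. S100a9, Anxa1 and Anxa5 were over 1 lower, as 7.53% of all genes were. S100a9 read 5.08 RPKM in input and 1.06 RPKM in TRAP, Anxa1 3.31 and 0.938 RPKM, and Anxa5 20.4 and 8.84 RPKM. S100a4 and S100a6 were nearer to parity there than in operated hearts, with differences of -0.17 and -0.26.

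In Tie2 TRAP RNA, the ribosome-bound RNA of Tie2-Cre cells, most of the 10 genes were above the heart input and S100a1 was far below it. Each comparison with it rests on 1 library a side, so no test was possible. Over 1 higher on the log2 scale than in Tie2 input were 6 of the 10 genes, S100a8, S100a10, Anxa1, Anxa2, Anxa3 and Anxa5, beside 31.5% of all genes. Over 1 lower was S100a1, beside 13.1% of all genes. The median of the 10 genes was 1.57 and that of all genes 0.48, which quantile normalization moved to 0.08 with the same numbers of members, 6 and 1, past the line.

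S100a10 and Anxa3 were highest relative to input. S100a10 went from 122 RPKM in Tie2 input to 985 RPKM in Tie2 TRAP, 8.04-fold. Anxa3 went from 8.97 to 71.8 RPKM, 8.01-fold. Cdh5, the endothelial cadherin, stood at 19.2 and 210 RPKM in the same libraries. Cdh5 had a larger fold than any member, as did all 12 endothelial markers but Erg, Egfl7 and Robo4. Erg read 9.70 and 43.2 RPKM, Egfl7 56.9 and 319 RPKM and Robo4 6.42 and 51.1 RPKM, smaller folds than those of S100a10 and Anxa3.

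Anxa5, Anxa2 and Anxa1 formed a middle group. Anxa5 read 22.0 RPKM in input and 81.6 RPKM in TRAP, 3.71-fold. Anxa2 read 50.6 and 171 RPKM, 3.37-fold. Anxa1, the least abundant, read 3.18 and 10.1 RPKM, 3.17-fold. The S100a10 to Anxa2 ratio reached 5.78 in Tie2 TRAP, above every CAG library.

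S100a6 fell just short of the line at 0.99, with 361 RPKM in input and 718 RPKM in TRAP. S100a4 read 27.2 and 41.7 RPKM, a difference of 0.60 as deposited, 0.12 after quantile normalization and 0.34 after rescaling. S100a1 went the other way, from 2739 RPKM in Tie2 input to 327 RPKM in Tie2 TRAP, a difference of -3.06. Troponin T (Tnnt2), the cardiomyocyte marker, read 18165 and 1367 RPKM there, so both were lower.

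The calprotectin pair split in the Tie2 heart. S100a8 read 2.44 RPKM in Tie2 input (48 reads) and 16.7 RPKM in Tie2 TRAP (254 reads), 6.87-fold. S100a9 read 27.3 RPKM (712 reads) and 25.8 RPKM (518 reads), 0.94-fold. Its log2 difference was -0.08 as deposited and -0.64 after quantile normalization. The ratio of S100a9 to S100a8 was 11.2 in Tie2 input and 1.54 in Tie2 TRAP.

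Across all 12 libraries that ratio ranged from 0.755 to 11.2. It was 1.53 and 1.33 in sham input, 0.824 and 0.755 in sham TRAP, 1.69 and 2.29 in band input and 1.25 and 1.59 in band TRAP. In unoperated CAG hearts it was 5.87 in input and 9.82 in TRAP, the latter from 4 reads of S100a8. The 3 libraries above 5 were all of unoperated hearts, and the fourth unoperated library, Tie2 TRAP, lay among the operated ones.

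Macrophage markers were high in Tie2 TRAP as well as endothelial ones. All 12 macrophage markers were over 1 higher than in Tie2 input, and Lyz2 went from 73.8 to 719 RPKM. The macrophage sum was 424 RPKM in input and 3526 RPKM in TRAP, against 267 to 613 RPKM in the operated libraries. The neutrophil sum without Lcn2 was 3.33 and 6.31 RPKM. Of 11 fibroblast markers, 4 were over 1 higher. Their part in the members' levels was not tested.

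**Figure D4:**
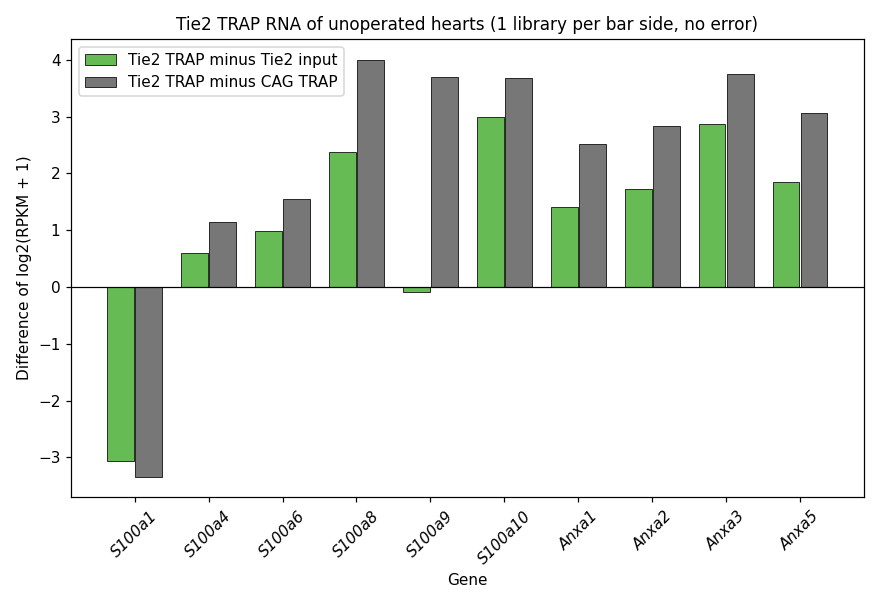
Difference of log2(RPKM + 1) of Tie2 TRAP from Tie2 input and from CAG TRAP of unoperated hearts, for each of the 10 genes, from 1 library a side and with no error. S100a1 is below 0 in both, and S100a9 is close to 0 against Tie2 input (-0.08) and at 3.70 against CAG TRAP.

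Set against CAG TRAP of an unoperated heart, the Tie2 TRAP library was over 1 higher for 9 of 10 genes and over 1 lower for S100a1, beside 44.4% and 11.3% of all genes and a median of 0.85 over all genes. Anxa3 was 16.3-fold higher (71.8 against 4.40 RPKM), S100a10 12.9-fold (985 against 76.3 RPKM) and Anxa1 10.8-fold. S100a9 was 24.4-fold higher. S100a8 read 16.7 RPKM against 0.108 RPKM, a value whose 95% Poisson limits, for counting error only, were 0.0293 and 0.275 RPKM. S100a4 was 2.27-fold and S100a6 2.95-fold higher, the smallest gaps of the 9; S100a4 dropped under the line after quantile normalization (0.44). This comparison shares the Tie2 TRAP library with the one against Tie2 input.

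**Figure D5:**
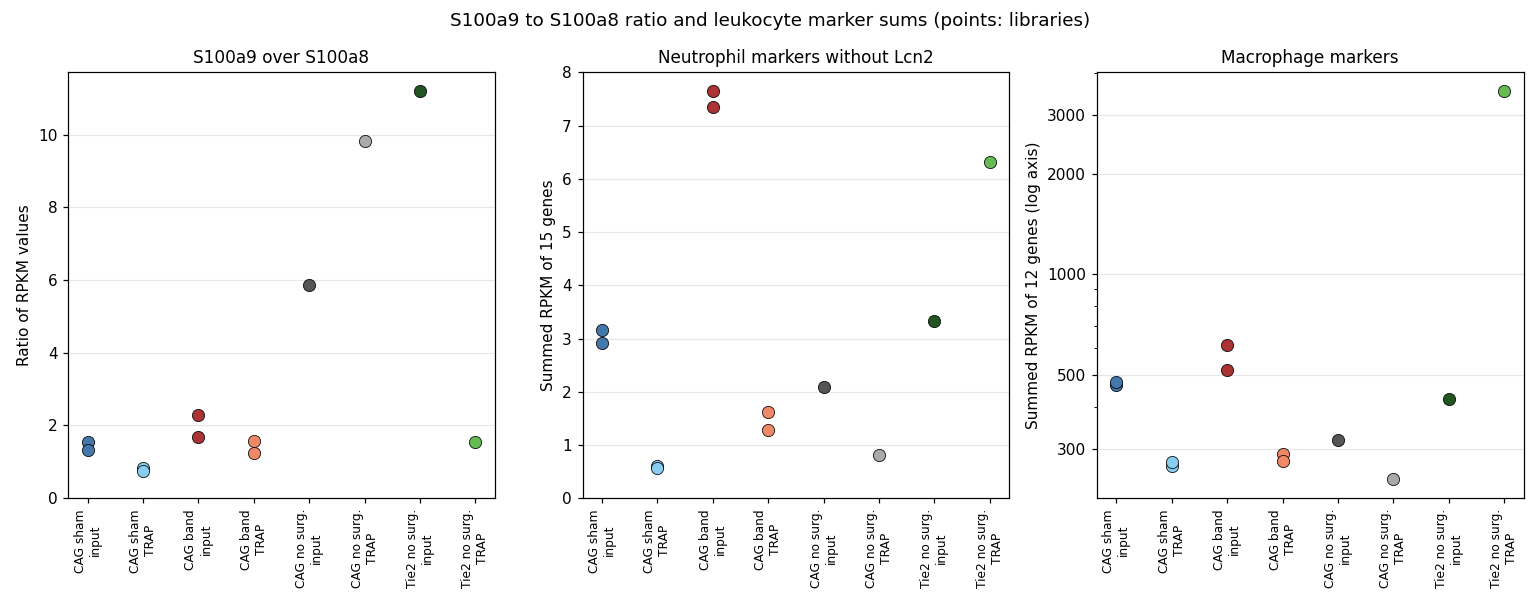
By library: the ratio of S100a9 to S100a8 RPKM, the summed RPKM of 15 neutrophil markers without Lcn2, and the summed RPKM of 12 macrophage markers on a log axis. The ratio is over 5 in 3 libraries of unoperated hearts; the neutrophil sum is highest in band input (7.66 and 7.35 RPKM); the macrophage sum is highest in Tie2 TRAP (3526 RPKM).

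Sham surgery and no surgery differed for few members. Against the unoperated CAG input, sham input was over 1 higher for S100a8 alone (7.31-fold, from 0.864 RPKM and 9 reads), as were 0.463% of all genes, and over 1 lower for none, as were 1.13% of all genes. S100a4 was lower at 10.7 and 12.3 RPKM against 20.8 RPKM, a difference of -0.80. Beside Nppa, the mesothelial marker Upk3b was higher in the unoperated heart, at 11 RPKM against 1.74 and 1.52 RPKM in sham input. It was the only 1 of 4 tested genes of its list past the line. Of the others, Msln (3.29 against 2.41 and 2.51 RPKM) and Krt19 (3.03 against 2.19 and 2.23 RPKM) were also higher there. Upk1b was lower (1.04 against 1.08 and 1.47 RPKM). Krt8, which did not pass the low-value filter, was lower too (0.396 against 0.828 and 0.922 RPKM). Between the unoperated inputs, S100a9 was 5.38-fold higher in the Tie2 than in the CAG heart and the only member over 1 higher, beside 1.26% of all genes. With 1 heart library a side, mouse line and library cannot be told apart in that gap.

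The list of other S100 genes had 11 in the table, among them S100pbp, which encodes an S100-binding protein and not an S100 protein. Of these 11, 5 passed the low-value filter, S100pbp included, and none was called in band input. S100a11, the neighbour of S100a10, was called higher in band TRAP (log2 difference 1.62, SE 0.21, limma adjusted p = 0.0107), from 83.8 and 82.7 RPKM in sham to 318 and 211 RPKM in band libraries. In input, where it was not called, S100a11 also read higher after banding, at 281 and 337 RPKM against 137 and 177 RPKM in sham libraries. Of 8 other annexins, 5 were tested. Anxa4, Anxa6, Anxa7 and Anxa11 were lower in sham TRAP than in input, and Anxa4 and Anxa6 in band TRAP. Anxa7 was called higher in band TRAP than in sham TRAP (0.66, SE 0.13, limma adjusted p = 0.0449). In Tie2 TRAP against Tie2 input, 3 of the 5 tested genes of the S100 list and 1 of these 5 annexins were over 1 higher. Among all genes 31.5% were, from 1 library a side and with no test.

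Of 26 receptors and binding partners, 18 were tested. In band input the urokinase receptor Plaur was called higher by 1.12 (SE 0.12, limma adjusted p = 0.00643) and the plasminogen activator Plau by 0.71 (SE 0.09, limma adjusted p = 0.0131). Neither was called in band TRAP. Myh9, the non-muscle myosin bound by S100A4, and Ahnak, a partner of S100A10 and annexin A2, were lower in TRAP than in input, by -1.65 and -1.61 in sham hearts (limma adjusted p = 8.14e-05 and 0.000580). Bsg, a receptor for S100A9, was higher in TRAP, at 0.42 (limma adjusted p = 0.00728). Of the 18 genes, limma called 5 lower and 1 higher in sham TRAP than in input, beside 24.5% and 15.1% of all genes. Long transcripts tended to be lower in TRAP RNA, with a median of -0.23 in sham hearts for the longest length class. The part of transcript length in the differences of Myh9 and Ahnak was not tested. Ager, Fpr1 and Fpr2, receptors for S100 proteins and annexin A1, were under 1 RPKM in all 12 libraries.

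Across the 12 libraries, the genes most like each member in log2(RPKM + 1) differed between members. Cox5a and Cisd1, both mitochondrial, followed S100a1 (Pearson r 1.00 and 0.99). Cfl1 and Actb, of the actin cytoskeleton, followed S100a6 (0.97 in both), and Tuba1a and Actg1, also cytoskeletal, followed Anxa2 (0.99 in both). Csf3r and Gm5506 followed S100a8 (0.95 in both), Dbn1 and Syk followed S100a9 (0.97 in both), and Dpysl3 and Cfl1 followed S100a4 (0.93 in both). S100a10 was closest to Gm6767 and Lxn (1.00 and 0.99), with reads shared between S100a10 and Gm6767 not checked here, Anxa3 to Rgs10 and Elmo1 (1.00 in both), Anxa1 to Glipr1 and Pphln1 (0.98 in both) and Anxa5 to Tmem183a and Itpkc (0.98 in both). The libraries share groups, and the Tie2 TRAP library stands far from the rest, so these values describe the table only. Among members over the 8 operated libraries, S100a6 and Anxa2 had an r of 0.99, S100a8 and S100a9 0.98 and S100a4 and S100a6 0.97, while S100a1 was negative with all 9 others, from -0.83 to -0.49.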

How the data were processed

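The authors deposited 1 table of RPKM values per gene. Per the submitters' processing notes, CASAVA 1.8.2, TopHat 1.4, HTSeq 0.5.3 and the build NCBIM37 were used; their settings are not given in the sources used here. Columns, 12 in all, were matched by name to the groups of 24 samples of the later deposit, whose names carry an l1 or l2 ending that no label explains. The 29 samples of the first deposit were not analysed here. RPKM times transcript length gave whole reads for 233410 of 233410 values above 0, within 0.02 reads. All 12 libraries entered 1 limma 3.58.1 fit (R 4.3.3) of log2(RPKM + 1) with a mean per group and a mean-variance trend, on the 11654 genes reaching 1 RPKM in 2 or more libraries, with 2-sided tests and Benjamini-Hochberg adjustment. This fit had 4 residual degrees of freedom, so p-values measure the spread between libraries, which may be technical. Scripts were tested on simulated data. Poisson limits are 95% and cover counting error only. Named genes are all members, the 2 genes most correlated with each, and examples from the lists. These examples were not always the genes with the largest difference. Members and lists were chosen with earlier results of these data known. Promoters come from RefSeq, GRCm38.p6. Alternatives were other pseudocounts, filters, scalings, blocks, left-out libraries and voom on recovered reads. A result among the binding partners is not reported here.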

Additional observations from a re-analysis of the deposited data

How the results depend on the processing

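Deviations of same-numbered libraries from their group means had correlations from -0.43 to 0.11. With 2 libraries a group, these values cannot show whether the numbers pair the samples. In TRAP against input, a replicate block called 8 members after sham surgery and 7 after banding, beside 8 and 8 as reported. In band against sham, the block called 3 members in input and 2 in TRAP, beside 4 and 4. For the change of the ratio it called 0, beside 0 as reported. The calls lost with the block were Anxa3 in band TRAP against input (limma adjusted p = 0.0605), S100a9 in band against sham input (0.0507), and S100a4 and S100a9 in band against sham TRAP (0.0604 and 0.0755). A block with the numbers crossed was run only in a fit over the libraries compared. It called 10 members and 6508 genes in sham TRAP against input, beside 10 members and 6426 genes in that fit without a block. In band against sham TRAP it called 1 member and 47 genes, beside 0 members and 0 genes in that fit without a block. For TRAP against input after sham surgery, leaving out 1 library called 5 to 7 members, and 1917 to 2294 genes against 4615. After banding it called 5 to 10 members, and a fit over only the libraries compared called 5 members and 2478 genes against 4964; a 5 RPKM filter called 3284 genes and leaving out band input library 1 called 2779. For band against sham in input, leaving out 1 library called 0 to 1 member and 26 to 68 genes against 476, the fit over only those libraries 8 members and 1418 genes, and the block 265 genes. For band against sham in TRAP, no filter called 1 member and 207 genes against 439, the fit over only those libraries 0 members and 0 genes, voom 2 members, and the block 263 genes. There, leaving out 1 library called 0 to 8 members and 33 to 1971 genes: 36 and 33 genes without sham TRAP library 1 or 2, and 5 members and 1661 genes, or 8 members and 1971 genes, without band TRAP library 1 or 2. The change of the ratio had 0 genes as reported, 2 with a pseudocount of 0.1 or with no filter, and 197 and 78 without band TRAP library 1 or 2. Where 1 library was left, it was assumed to vary like the other groups. The cause of these shifts was not tested. Among the single-library differences, no member past the line of 1 changed sign under another scaling. In the unoperated CAG heart, members over 1 lower in TRAP numbered 3 as deposited, 1 after quantile normalization and 4 after rescaling.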
